A study of Mus musculus with 11 samples.

Results

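The genes described here are 8 markers of the formative epiblast: Fgf5, Otx2, Pou3f1, Zic2, Zic5, Tcf15, Foxd3 and Car14. They were chosen by symbol, as genes of the post-implantation or formative epiblast, and all 8 were found among the 19935 genes of the table. The platform annotation assigns 2 transcript clusters (the array's unit for a gene or part of one) to Zic5 and 1 to each of the others. The positions of the clusters were not used here, so it was not checked that both Zic5 clusters lie at that gene, and the Zic5 values below are means of the pair. The data come from mouse embryonic stem cells (ESCs) on 11 single-colour Affymetrix arrays in 4 groups. The control line was E14, grown in ESC medium (n = 3) or kept for 3 days in N2B27 (n = 3), a medium without serum that lets ESCs exit naive pluripotency. The mutant cells carry the label Bmpr1a-/-, and Bmpr1a encodes a receptor of bone morphogenetic proteins. Their arrays came from ESC medium (n = 2, with the numbers 2 and 3) and from N2B27 after 3 days (n = 3), and mutant number 1 in ESC medium is not analysed here. The labels name 3 mutant lines (C1-6, Fr124 and Fr88) without tying a line to an array. A genotype difference therefore cannot be told apart from a difference between cell lines. Separate cultures are not stated for the arrays of a group, and p-values therefore measure only how arrays spread, which may be technical.

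When ESCs leave the naive state they pass through a formative phase that resembles the early post-implantation epiblast, in which naive factors are lost and the cells become able to respond to germ-layer signals. Otx2 and Pou3f1, also known as Oct6, are transcription factors that direct this step, Fgf5 is a secreted growth factor used as its classical marker, and Zic2 and Zic5 are zinc finger factors of the epiblast and early neural plate. Tcf15 is a helix-loop-helix factor linked to priming of pluripotent cells and later to paraxial mesoderm. Foxd3 is a forkhead factor that epiblast and ESCs need and that neural crest uses later, and Car14 encodes a membrane-bound carbonic anhydrase.

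The starts of 5 of the 8 genes were matched to RefSeq promoter windows (GRCm38.p6, 250 bases before a start site and 50 from it). The 4 windows shown belong to Fgf5, with the largest rise of the 8 in both genotypes, to Otx2 and Car14, which rose and whose windows hold the core motif of OTX factors, and to Foxd3, which fell. Capitals mark matches on either strand to TAATCC (the OTX core, GGATTA when read on the other strand), ATGCAAAT (the octamer of POU factors) or TATAAA (the TATA box). These motifs do not overlap in the windows shown, and they were picked with the sequences in view.
Fgf5, chr5:98253934-98254233, plus strand: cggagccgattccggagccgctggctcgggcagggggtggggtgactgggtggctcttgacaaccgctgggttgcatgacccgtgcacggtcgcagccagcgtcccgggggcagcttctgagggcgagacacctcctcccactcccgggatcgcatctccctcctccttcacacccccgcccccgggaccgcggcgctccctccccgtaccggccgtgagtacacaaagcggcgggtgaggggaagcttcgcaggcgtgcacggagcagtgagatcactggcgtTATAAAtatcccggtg
Otx2, the third of 4 listed starts, chr14:48665060-48665359, minus strand: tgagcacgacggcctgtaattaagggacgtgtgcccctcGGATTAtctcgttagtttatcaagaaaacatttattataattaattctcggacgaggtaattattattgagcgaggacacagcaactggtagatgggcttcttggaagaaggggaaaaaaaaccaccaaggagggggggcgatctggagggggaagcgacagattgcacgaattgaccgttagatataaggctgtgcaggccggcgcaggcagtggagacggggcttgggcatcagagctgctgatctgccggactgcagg
Car14, chr3:95904636-95904935, minus strand: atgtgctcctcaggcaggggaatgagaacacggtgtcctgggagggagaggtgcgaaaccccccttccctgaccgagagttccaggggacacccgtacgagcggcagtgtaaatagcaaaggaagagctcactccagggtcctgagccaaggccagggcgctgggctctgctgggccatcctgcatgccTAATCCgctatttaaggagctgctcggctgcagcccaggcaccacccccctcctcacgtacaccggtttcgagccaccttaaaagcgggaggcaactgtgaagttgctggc
Foxd3, chr4:99656049-99656348, plus strand: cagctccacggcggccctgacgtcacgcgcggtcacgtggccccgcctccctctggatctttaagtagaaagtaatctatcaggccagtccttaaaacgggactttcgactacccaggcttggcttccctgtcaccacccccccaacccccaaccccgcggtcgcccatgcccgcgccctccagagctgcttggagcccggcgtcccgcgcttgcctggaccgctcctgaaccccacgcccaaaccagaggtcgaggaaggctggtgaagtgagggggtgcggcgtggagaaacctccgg
TAATCC lies at base 190 of the Car14 window and, on the other strand, at base 40 of the third Otx2 window. It occurs in 7.06% of the 32851 promoter windows in the table. TATAAA starts at base 285 of the Fgf5 window, which is among the 50 bases from the start site and not before it. It also starts at base 59 of the window of the first listed Otx2 start, and occurs in 13.6% of windows. The octamer, present in 1.74% of windows, was not found in the windows of these 5 genes, and the Foxd3 window holds no match to any of the 3 motifs. The Fgf5, Foxd3, Zic5 and Car14 windows had 68.3%, 65.7%, 62.7% and 61.0% of G and C, against a median of 52.7% over all windows. The 4 Otx2 windows had 41.7% to 53.7%. A match describes the letters of a window and not the binding of a factor.

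Each value is a log2 distance from the gene's own baseline, so values can be set against each other between arrays but not between genes, and brightness cannot be read from them. The number of arrays limits the precision. Bmpr1a itself read 0.16 to 0.37 in control and -0.03 to 0.00 in mutant arrays in ESC medium. In N2B27 it read 0.61 to 0.76 and -0.14 to 0.15. The log2 difference was -0.27 (SE 0.10, adjusted p = 0.145) in ESC medium, -0.72 (adjusted p = 0.00237) there under cyclic loess, and -0.70 (SE 0.09, adjusted p = 0.00211) in N2B27, and the deleted part of the gene is not given in the labels. Of the receptor's target genes, Id1, Id2 and Id3 differed by -0.53, -1.81 and -0.78 in ESC medium (adjusted p = 0.0502, 0.00514 and 0.0495) and by -0.27, -0.03 and -0.23 in N2B27, where 0 of the 3 were called. Mutant replicate 2 in N2B27 deviated most from its group mean, with a root mean square of 0.185 over all genes, against 0.0774 to 0.155 for the other 10 arrays. Mutant replicate 1 in N2B27 came next, at 0.155. The 2 mutant arrays in ESC medium must deviate equally from their mean, so their 0.0774 cannot be set against groups of 3. In the RefSeq table the 8 markers lie on chromosomes 2, 3, 4, 5 and 14. Zic2 and Zic5 are neighbours on chromosome 14, with 0 protein-coding genes between them.

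**Figure D1:**
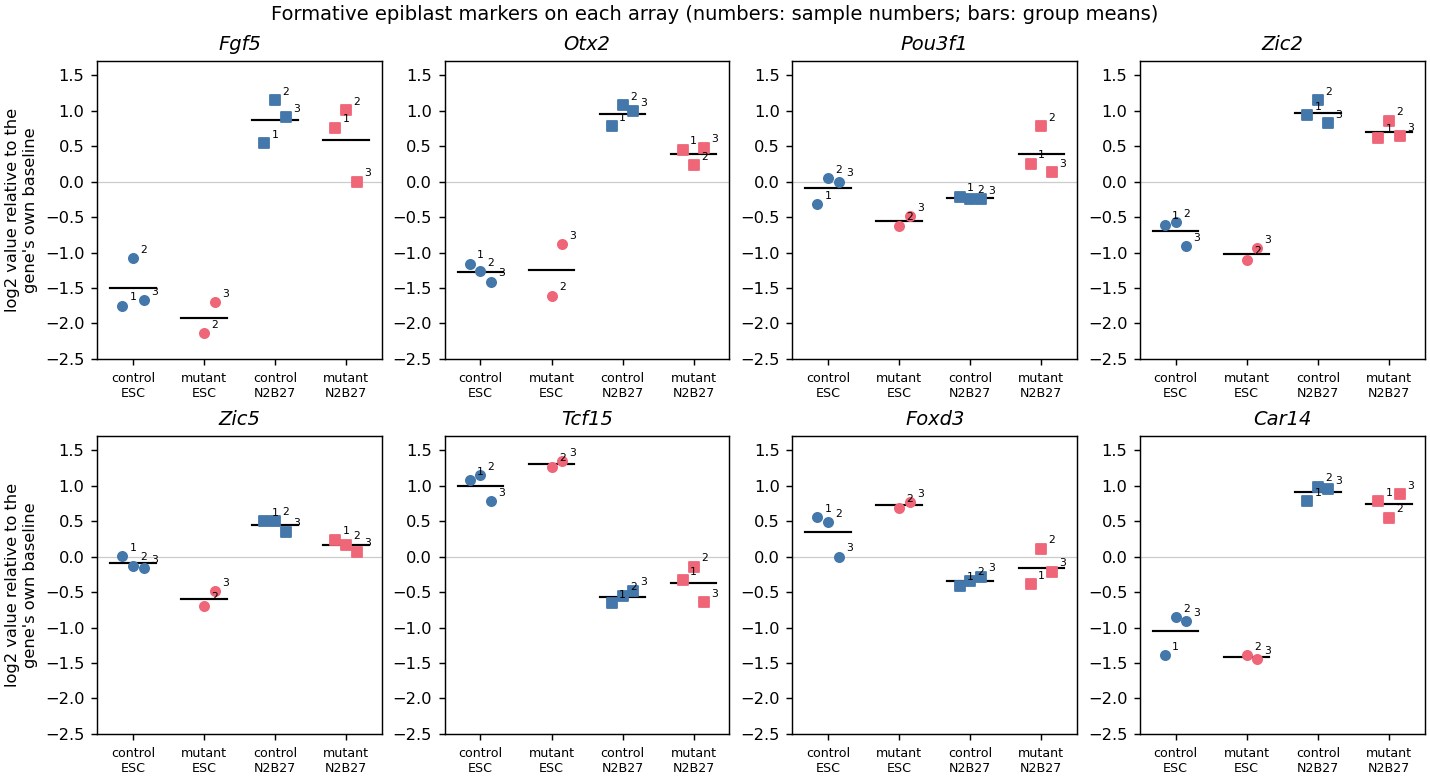
Log2 value of each marker (vertical axis, relative to the gene's own baseline) on each of the 11 arrays, by group. Points are arrays with their sample numbers, circles ESC medium, squares N2B27, blue control and red mutant, and bars are group means. Fgf5, Otx2, Zic2, Zic5 and Car14 lie higher in N2B27 in both genotypes, Tcf15 and Foxd3 lower, and Pou3f1 is above its ESC medium values in mutant arrays (0.13 to 0.78) while its control arrays read -0.25 to -0.21.

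Which of the markers change when control ESCs spend 3 days in N2B27 was addressed by the 3 control arrays of each medium. Fgf5, Otx2, Car14, Zic2 and Zic5 rose, Tcf15 and Foxd3 fell, and Pou3f1 was not called. That is 5 higher and 2 lower of 8, where a gene is called at an adjusted p under 0.05 (limma, Benjamini-Hochberg over all 19935 genes). Over all genes 12.8% were called higher and 13.3% lower, 26.1% together. The median log2 difference was 1.11 over the 8 markers and 0.02 over all genes. The 2 groups of arrays did not overlap in 7 of the 8, as in 43.9% of all genes.

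The secreted factor Fgf5 read -1.75, -1.08 and -1.67 in ESC medium and 0.54, 1.15 and 0.91 in N2B27. Every N2B27 array was thus above every ESC medium array, though the arrays of each medium spread more than for most other markers (SD 0.37 and 0.31). The log2 difference was 2.37 (SE 0.28, adjusted p = 2.43e-04), which is 5.17-fold and the 9th largest of the 19935 genes.

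Among the transcription factors, Otx2 read -1.16, -1.26 and -1.41 in ESC medium and 0.78, 1.08 and 0.99 in N2B27. All 3 arrays of a medium lay close together and far from the other medium. Otx2 rose by 2.23 (SE 0.17, adjusted p = 2.92e-05), or 4.69-fold, the 14th largest difference. Zic2 read -0.61, -0.57 and -0.91 in ESC medium and 0.94, 1.15 and 0.82 in N2B27. It rose by 1.66 (SE 0.12, adjusted p = 2.02e-05), or 3.17-fold, again without overlap. Its neighbour Zic5 read 0.01, -0.13 and -0.16 in ESC medium and 0.50, 0.51 and 0.35 in N2B27. The rise of 0.55 (SE 0.08, adjusted p = 9.43e-04), or 1.46-fold, was the smallest of the 5, also without overlap.

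The 2 clusters annotated as Zic5 differed in the size of the change. One of them may measure something other than Zic5, which was not tested, and every mean given for Zic5 carries that doubt. The first ran from -0.34 to -0.06 in ESC medium and from 0.50 to 0.74 in N2B27 (control), a difference of 0.78 (adjusted p = 7.46e-04 with each cluster tested on its own). The second read -0.15 to 0.09 and 0.20 to 0.43, a difference of 0.32 that did not pass (adjusted p = 0.0609). Neither cluster overlapped between the media in control.

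Car14, the carbonic anhydrase gene, read -1.39, -0.85 and -0.91 in ESC medium and 0.78, 0.99 and 0.95 in N2B27. It rose by 1.96 (SE 0.14, adjusted p = 2.14e-05), or 3.88-fold. The spread within ESC medium came from replicate 1, the lowest array, and the media did not overlap.

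Tcf15 went the other way, reading 1.08, 1.15 and 0.78 in ESC medium and -0.66, -0.55 and -0.48 in N2B27. It fell by 1.57 on the log2 scale (SE 0.13, adjusted p = 4.46e-05), or 2.97-fold, the 127th lowest difference of the 19935 genes. Foxd3 read 0.56, 0.49 and 0.00 in ESC medium and -0.41, -0.34 and -0.28 in N2B27. The groups stayed apart, with replicate 3 in ESC medium closest to the N2B27 arrays, and the log2 difference was -0.70 (SE 0.15, adjusted p = 0.00784). Pou3f1 read -0.32, 0.05 and 0.00 in ESC medium and -0.21, -0.24 and -0.25 in N2B27. Here the media overlapped, and the difference of -0.14 (SE 0.16, 95% interval -0.49 to 0.21, adjusted p = 0.622) was not called.

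Array numbers paired the control arrays of the 2 media, as described under the processing. Pair by pair, Fgf5 differed by 2.29, 2.23 and 2.59, Otx2 by 1.94, 2.34 and 2.40, and Zic2 by 1.54, 1.72 and 1.73. Car14 differed by 2.17, 1.84 and 1.86 and Zic5 by 0.48, 0.65 and 0.51. These 5 genes were higher in 3 of 3 pairs, and Tcf15 (-1.74, -1.71 and -1.26) and Foxd3 (-0.97, -0.83 and -0.28) lower in 3 of 3. As the media did not overlap in these genes, any pairing gives the same direction, and the pair counts add no support. Pou3f1 differed by 0.11, -0.29 and -0.25, without a common direction.

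The same question in the mutant cells rested on 2 arrays in ESC medium and 3 in N2B27, which are other arrays than those of the control comparison. Here 6 of the 8 rose and 2 fell, against 14.9% of all genes called higher, 10.3% lower and 25.2% in either direction. The 6 were the 5 that rose in control and Pou3f1, and the 2 were Tcf15 and Foxd3. The median difference was 1.28 over the 8 markers and 0.01 over all genes. The groups of arrays did not overlap in 8 of 8, as in 43.5% of all genes.

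In mutant cells Fgf5 read -2.14 and -1.70 in ESC medium and 0.76, 1.01 and 0.00 in N2B27. Replicate 3 in N2B27 was the lowest of the 3 and still far above ESC medium. The rise was 2.51 (SE 0.31, adjusted p = 2.94e-04), or 5.70-fold, the 27th largest among all genes. Otx2 read -1.61 and -0.88 in ESC medium and 0.45, 0.23 and 0.48 in N2B27, a rise of 1.63 (SE 0.19, adjusted p = 1.99e-04), or 3.10-fold. The 2 mutant arrays in ESC medium stood further apart (SD 0.52) than the arrays of any other group of this gene.

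Car14 read -1.39 and -1.45 in ESC medium and 0.78, 0.55 and 0.88 in N2B27, and rose by 2.16 (SE 0.16, adjusted p = 1.78e-05), or 4.47-fold. Zic2 read -1.10 and -0.94 in ESC medium and 0.62, 0.86 and 0.64 in N2B27, and rose by 1.73 (SE 0.13, adjusted p = 2.25e-05), or 3.32-fold. Zic5 read -0.69 and -0.49 in ESC medium and 0.24, 0.17 and 0.07 in N2B27. It rose by 0.75 (SE 0.09, adjusted p = 2.85e-04), or 1.68-fold, with 1.11 (adjusted p = 1.96e-04) for its first cluster and 0.38 (adjusted p = 0.0483) for its second. In each of these 3 genes the arrays of one medium lay close together and the media did not overlap.

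Pou3f1 read -0.62 and -0.49 in mutant arrays in ESC medium and 0.25, 0.78 and 0.13 in N2B27. All 3 N2B27 arrays were above both ESC medium arrays, with replicate 2, the array of the largest deviation over all genes, the highest. The rise was 0.94 (SE 0.17, adjusted p = 0.00304), or 1.92-fold. Without that replicate it was 0.74 (adjusted p = 0.00136).

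Tcf15 read 1.27 and 1.35 in mutant arrays in ESC medium and -0.33, -0.14 and -0.64 in N2B27. It fell by 1.68 on the log2 scale (SE 0.14, adjusted p = 4.74e-05). Foxd3 read 0.69 and 0.77 in ESC medium and -0.39, 0.11 and -0.21 in N2B27, a log2 difference of -0.89 (SE 0.17, adjusted p = 0.00362). For both genes replicate 2 was the highest of the N2B27 arrays, and the media still did not overlap.

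**Figure D2:**
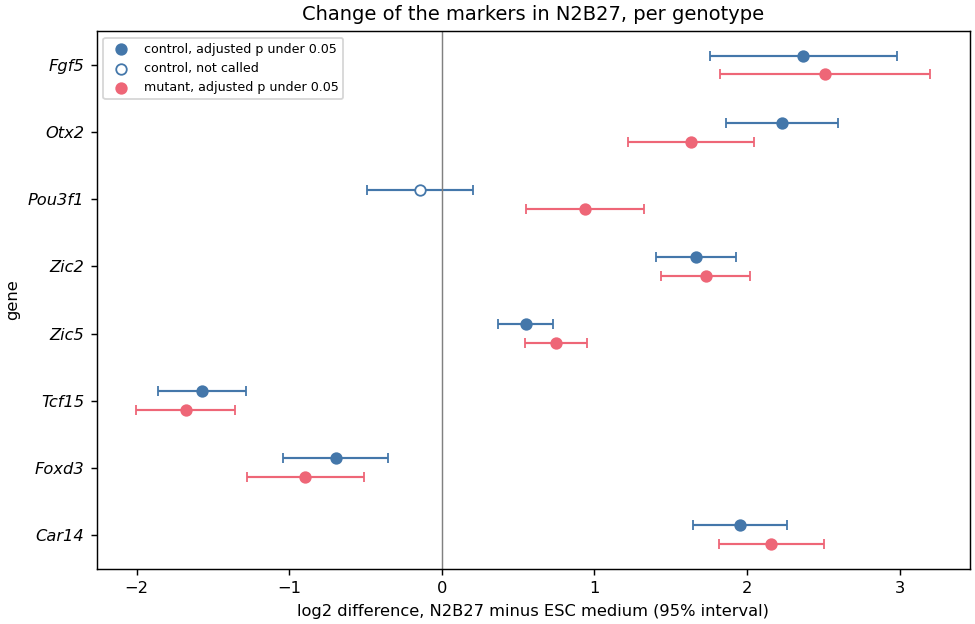
Log2 difference of each marker between N2B27 and ESC medium (horizontal axis) in control (blue) and mutant cells (red), with 95% intervals from limma. Filled points were called at an adjusted p under 0.05 and open points were not. The intervals of the genotypes overlap for 7 markers, while Pou3f1 is at -0.14 in control and 0.94 in mutant.

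Whether the change in N2B27 differed between the genotypes was tested for every gene by the interaction, which takes the mutant's change between media minus the control's. Of the 8 markers, 1 was called, higher, where 1.57% of all genes were called higher and 2.12% in either direction. It was Pou3f1, with 1.08 (SE 0.23, adjusted p = 0.0480). The call is close to the threshold. It was lost under cyclic loess (0.98, adjusted p = 0.0973), with each cluster tested on its own (adjusted p = 0.0633), and without any 1 of 8 arrays, with adjusted p from 0.0570 to 0.211. Those 8 were control replicates 2 and 3 and mutant replicates 2 and 3 in ESC medium, and control replicates 1, 2 and 3 and mutant replicate 1 in N2B27. Without mutant replicate 2 in N2B27 it was 0.88 (adjusted p = 0.0174). Among markers of other cell types, the interaction was also called higher for Krt8 (2.43), Tagln (2.35), Nes (2.11), Krt18 (1.83) and Col1a1 (1.55). These were 2 of 5 trophoblast, 2 of 7 fibroblast and 1 of 7 neural progenitor genes measured. In the neural crest, primitive streak and mesoderm, endoderm and pluripotent stem cell lists 0 were called. The median interaction of the 7 neural progenitor genes was -0.13, of the opposite sign to Nes. The number of called genes fell when some single arrays were left out, to 0 for Nes, to 0 or 1 of the fibroblast pair and to 1 of the trophoblast pair. The part of these genes in the Pou3f1 result was not tested.

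For the other 7 markers the interaction was not called, which does not show that the genotypes respond alike. Otx2 had -0.60 (SE 0.25, 95% interval -1.15 to -0.04, adjusted p = 0.314), and Fgf5 had 0.14 with the widest interval, -0.78 to 1.06. The intervals ran from -0.33 to 0.45 for Zic2, from -0.07 to 0.47 for Zic5 and from -0.26 to 0.67 for Car14. For Tcf15 they ran from -0.54 to 0.33 and for Foxd3 from -0.71 to 0.31.

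How mutant cells differ from control in ESC medium was addressed with 2 mutant and 3 control arrays, which the comparisons of media use as well. Zic5 fell in mutant cells and the other 7 were not called, so 1 of 8 was called, lower, against 3.05% of all genes called lower, 3.09% higher and 6.14% in either direction. Zic5 read -0.69 and -0.49 in mutant arrays and -0.16 to 0.01 in control, without overlap. The log2 difference was -0.49 (SE 0.09, adjusted p = 0.0114). It was not called without mutant replicate 2 (-0.39, adjusted p = 0.142), and of its clusters the first had -0.63 (adjusted p = 0.0131) and the second -0.36 (adjusted p = 0.138).

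The differences of the other markers in ESC medium were of both signs. Pou3f1 had -0.46 (SE 0.17, adjusted p = 0.186), with both mutant arrays below the lowest control array, at -0.32. Zic2 had -0.33 (SE 0.13, adjusted p = 0.210), with mutant arrays at -1.10 and -0.94 just below the lowest control array at -0.91. Car14 had -0.37 (SE 0.16, adjusted p = 0.242). Its mutant arrays (-1.39 and -1.45) were level with control replicate 1 (-1.39), the lowest control array, without which the difference was -0.54 (adjusted p = 0.0214) and called. Fgf5 had -0.42 (95% interval -1.11 to 0.27, adjusted p = 0.588) and Otx2 0.03 (95% interval -0.38 to 0.45, adjusted p = 0.971), with groups that overlapped. Tcf15 had 0.30 (SE 0.14, adjusted p = 0.328) and Foxd3 0.38 (SE 0.17, adjusted p = 0.287), and both mutant arrays were above all 3 control arrays in each. In all, the genotypes did not overlap in ESC medium in 5 of the 8 (Pou3f1, Zic2, Zic5, Tcf15 and Foxd3), where 39.4% of all genes did not overlap.

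In N2B27, with 3 arrays of each genotype, Pou3f1 rose in mutant cells and the other 7 were not called. That is 1 of 8, higher, against 4.1% of all genes called higher and 5.74% in either direction. Pou3f1 read 0.25, 0.78 and 0.13 in mutant and -0.21, -0.24 and -0.25 in control, so that 3 tightly grouped control arrays (SD 0.02) lay below 3 scattered mutant arrays (SD 0.35). The log2 difference was 0.62 (SE 0.16, adjusted p = 0.0480), or 1.53-fold, and by array number the differences were 0.46, 1.02 and 0.37. The rise of Pou3f1 in mutant cells and its interaction rest on the same 3 mutant arrays. The call was lost without mutant replicate 2, the array of the largest deviation (0.42, adjusted p = 0.0523). It was also lost without mutant replicate 1 or any control replicate in N2B27 (adjusted p = 0.0612 to 0.145), under cyclic loess (adjusted p = 0.0752), with each cluster tested on its own (adjusted p = 0.0605) and with the compared groups alone (adjusted p = 0.119).

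Otx2 in N2B27 read 0.45, 0.23 and 0.48 in mutant and 0.78, 1.08 and 0.99 in control. Every mutant array was below every control array, and the differences by array number were -0.33, -0.85 and -0.51. The log2 difference of -0.56 (SE 0.17, adjusted p = 0.0829) was not called. It passed under cyclic loess (-0.63, adjusted p = 0.0373) and with array weights (-0.53, adjusted p = 0.0438). Zic5 in N2B27 had -0.30 (SE 0.08, adjusted p = 0.0664), without overlap and therefore lower in 3 of 3 numbered pairs. It passed with array weights (-0.35, adjusted p = 0.0104). Those weights were 0.36, 0.23 and 2.93 for mutant replicates 1, 2 and 3 in N2B27. On the mutant side the passes of Otx2 and Zic5 with array weights therefore rest mostly on replicate 3.

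The remaining 5 markers overlapped between the genotypes in N2B27. Zic2 had -0.27 (95% interval -0.53 to -0.01, adjusted p = 0.247), lower in 3 of 3 numbered pairs (-0.32, -0.30 and -0.18), and Fgf5 -0.28 (95% interval -0.89 to 0.34, adjusted p = 0.693). Car14 had -0.17 (95% interval -0.48 to 0.14), Tcf15 0.19 (-0.10 to 0.48) and Foxd3 0.18 (-0.16 to 0.52), with adjusted p of 0.619, 0.506 and 0.629. The groups did not overlap in 3 of the 8 markers, Otx2, Pou3f1 and Zic5, where 20.2% of all genes did not overlap.

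**Figure D3:**
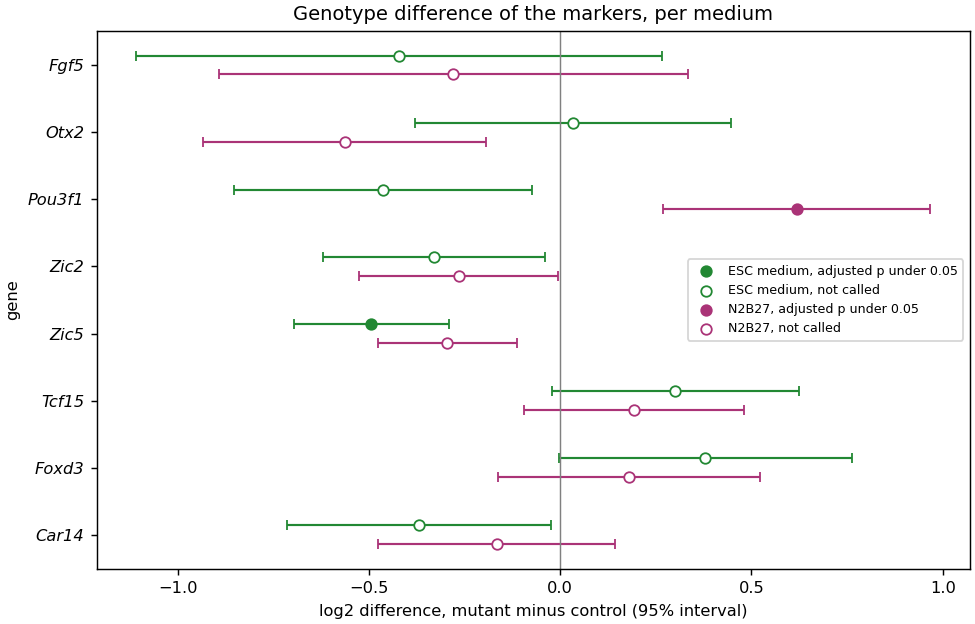
Log2 difference of each marker between mutant and control (horizontal axis) in ESC medium (green) and N2B27 (purple), with 95% intervals from limma. Filled points, Zic5 in ESC medium at -0.49 and Pou3f1 in N2B27 at 0.62, were called at an adjusted p under 0.05, and open points were not. Pou3f1 lies below 0 in ESC medium and above 0 in N2B27.

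Other genes of the formative and early post-implantation epiblast moved both ways in N2B27. Of 15 listed, 14 were measured. In control, 3 rose, 6 fell and 5 did not pass (median -0.28), and in mutant 5 rose, 2 fell and 7 did not pass (median 0.17). Sall2, a zinc finger factor gene, rose by 1.64 (SE 0.11, adjusted p = 1.78e-05) in control and 1.87 (SE 0.13, adjusted p = 1.36e-05) in mutant. Tdgf1, the gene of the Nodal co-receptor, fell in both, with log2 differences of -3.77 (SE 0.60, adjusted p = 0.00129) in control and -2.51 (SE 0.67, adjusted p = 0.0194) in mutant. The mutant call of Tdgf1 was lost without mutant replicate 2 or 3 in ESC medium or 1 or 3 in N2B27 (adjusted p = 0.0536 to 0.111). Nodal, its ligand, fell by 2.01 (SE 0.41), and the ETS factor gene Etv4 fell by 1.53 (SE 0.20), both in control. In mutant cells the kinase gene Pim2 rose by 1.68 (SE 0.46) and Cdh2, of N-cadherin, by 1.21 (SE 0.24). Pim2 was not called without mutant replicate 2 (adjusted p = 0.163) or 3 (adjusted p = 0.0681) in ESC medium.

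Between the genotypes, 2 of the 14 fell in the mutant in ESC medium and 2 rose in N2B27. In ESC medium these were the epithelial factor gene Grhl2, at -0.70 (SE 0.09), and the WNT effector gene Lef1, at -1.27 (SE 0.26). Lef1 was not called without control replicate 2 or mutant replicate 2 or 3 (adjusted p = 0.0666 to 0.166). In N2B27 they were Etv4, at 1.26 (SE 0.20), and Etv5, at 0.76 (SE 0.15). Etv5 lost its call without control replicate 1 (adjusted p = 0.0597) or 2 (adjusted p = 0.0547) in N2B27. In the interaction the median over the 14 was 0.75, against 0.01 over all genes, and 7 had an unadjusted p under 0.05 (limma). The share of all genes with such an unadjusted p was not counted, so the 7 cannot be set against it. After adjustment 1 of 14 was called, where 2.12% of all genes were. It was Grhl2, at 0.65 (SE 0.12, adjusted p = 0.0218). That call was lost without control replicate 2 of either medium or mutant replicate 2 or 3 in ESC medium (adjusted p = 0.0573 to 0.119).

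All 14 naive pluripotency genes measured fell in N2B27 in both genotypes, with medians of -2.24 in control and -2.25 in mutant. Nr0b1, an orphan nuclear receptor gene, had -5.43 (SE 0.20) in control and -4.57 (SE 0.22) in mutant, and Zfp42, also known as Rex1, had -4.34 and -3.44. Tcf15 and Foxd3 are the 2 markers that moved in this direction. Between the genotypes, 5 of the 14 were higher in the mutant in ESC medium (median 0.55) and 4 in N2B27 (median 0.52), and 0 were lower in either. The ESC medium count was 2 or 3 when control number 2, control number 3 or either mutant array was left out, and 2 under cyclic loess or a trended prior. With array weights the counts rose, to 9 in ESC medium and 7 in N2B27. In N2B27, Zfp42 differed by 1.78 (SE 0.19, adjusted p = 0.00129), Nr0b1 by 1.37 (SE 0.20, adjusted p = 0.00486) and Esrrb, another orphan nuclear receptor gene, by 1.30 (SE 0.20, adjusted p = 0.00570). In the interaction 0 of the 14 were called by limma, and 5 had an unadjusted p under 0.05, a level at which all genes were not counted.

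Of the 5 genes taken as defining markers of pluripotent stem cells, 5 fell in each genotype. Their mean ran from 1.13 to 1.38 in control and from 1.60 to 1.64 in mutant arrays in ESC medium. In N2B27 it ran from -1.14 to -0.93 in control and from -0.44 to -0.30 in mutant. In this mean the mutant arrays were thus above control in both media, with 1 of the 5 called higher in ESC medium and 3 in N2B27. The 1, Zfp42, lost its call in ESC medium without any 1 of those same 4 arrays, under cyclic loess and with a trended prior. The 3 in N2B27 were Zfp42 (1.78), Esrrb (1.30) and Pou5f1 (0.48), while Nanog had -0.25 there (adjusted p = 0.768, limma). Zfp42, Esrrb and Nanog are also among the naive genes above, so the 2 lists are not separate evidence.

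**Figure D4:**
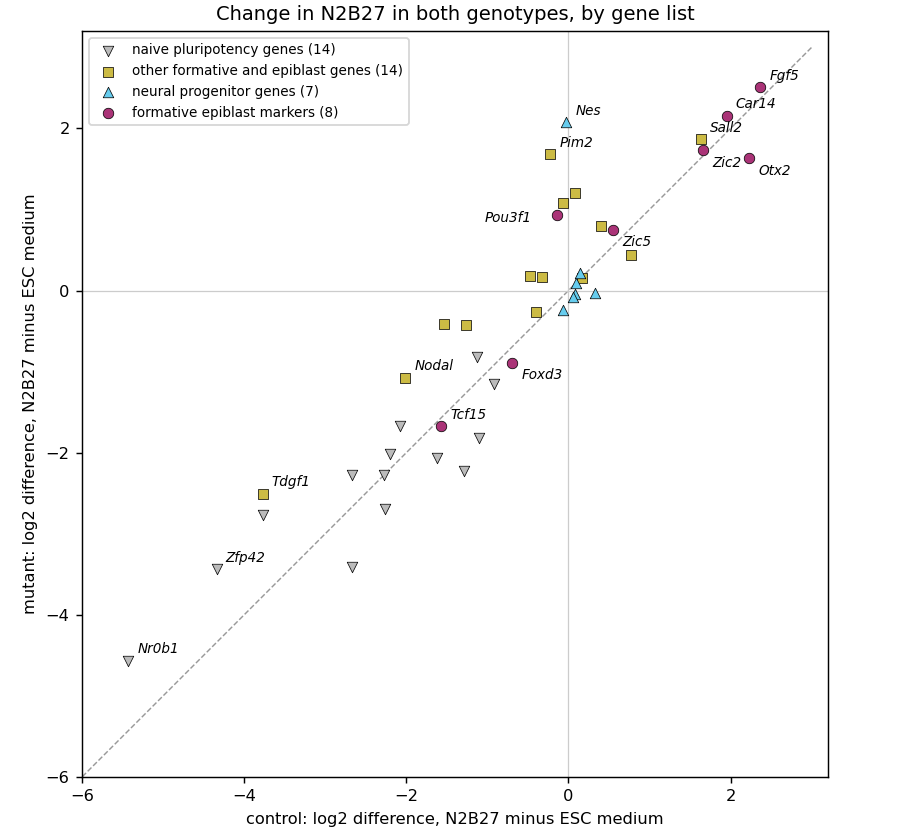
Log2 difference between N2B27 and ESC medium in control (horizontal axis) against that in mutant cells (vertical axis) for the 8 markers (purple circles) and 3 gene lists. Each point is a gene, and the dashed line marks equal change. The markers spread from Tcf15 (-1.57 and -1.68) to Fgf5 (2.37 and 2.51), and the naive genes lie below 0 on both axes. Pou3f1 and Nes lie off the line, higher in mutant. Other formative genes lie off it the same way, such as Pim2 (-0.22 and 1.68), Cdh2 (0.08 and 1.21) and Lef1 (-0.07 and 1.08). Sox3 of that list (0.77 and 0.44) lies on the other side.

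Relatives of the markers were mostly uncalled. Of 17 related family members listed, 16 were measured, and in control 1 rose, 1 fell and 14 did not pass. Foxd4, a forkhead gene, rose by 0.83 (SE 0.12, adjusted p = 6.45e-04) in control and was lower in mutant cells in N2B27 by -0.64 (SE 0.12, adjusted p = 0.0123, or 0.0660 with the compared groups alone). Fgf4, a growth factor gene of ESCs, was the 1 called in mutant cells, and had -2.21 in control and -2.02 in mutant. Pou3f2, Pou3f3, Zic1, Zic4 and Otx1, relatives of Pou3f1, Zic2 and Otx2 that neural cells use, were picked out after their values were seen. They were not called, with differences between media of 0.06 to 0.20 in control and -0.19 to 0.22 in mutant. The pick leaves out Foxd4 and does not stand for the list. In control, Otx1 (0.20, unadjusted p = 0.0138, limma), Pou3f2 (0.14) and Zic4 (0.13) were higher in N2B27 without overlap. In mutant, Pou3f2 (0.22) was higher and Otx1 (-0.19) lower without overlap.

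Several of the markers are also expressed outside the epiblast, so markers of other cell types were read on the same arrays. In bulk samples fewer cells of a type and less RNA per cell cannot be told apart, and on centred values it cannot be read whether a gene is absent. Of 7 neural progenitor genes measured, 1 rose in each genotype, Sox1 in control by 0.33 (SE 0.08, adjusted p = 0.0164) and Nes in mutant by 2.08 (SE 0.32, adjusted p = 0.00103). Sox1 was not called without control replicate 1 or 2 in ESC medium or 2 in N2B27 (adjusted p = 0.0523 to 0.0640). Nes, of the nestin filament, read -1.34 and -0.81 in mutant arrays in ESC medium and 1.10, 0.71 and 1.22 in N2B27. The mean of the 7 genes was -0.11 to 0.01 in control and -0.12 to -0.11 in mutant in ESC medium. In N2B27 it was -0.08 to 0.08 and 0.14 to 0.19. Nes alone was called higher there in the mutant (1.27, SE 0.29, adjusted p = 0.0312), and the count of 1 became 0 without any 1 of the arrays in N2B27 except mutant replicate 2. The median difference of the 7 genes was -0.07. Of 6 neural crest genes 1 rose in each genotype, the ETS factor gene Ets1 (0.47 and 1.06). Of 6 primitive streak and mesoderm genes, 0 were called in control by limma (2 at an unadjusted p under 0.05) and 1, Eomes, rose in mutant (1.10, adjusted p = 0.0276), not called without mutant replicate 2 or 3 in ESC medium or 1 in N2B27 (0.0722 to 0.128). Of 6 endoderm genes 0 were called in either genotype by limma, and 1 in each had an unadjusted p under 0.05. The share of all genes at that unadjusted level was not counted for either list.

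Of 7 fibroblast genes, 4 fell in mutant cells in ESC medium, where Zic5 was lower too, and 1 was lower in N2B27. The N2B27 count became 0 under cyclic loess and without any 1 of the arrays in N2B27 except mutant replicate 3. The 4 were the actin-cytoskeleton genes Tagln (-2.23) and Acta2 (-1.88) and the collagen genes Col1a1 (-1.32) and Col1a2 (-0.73), and 1 or 2 were called without control replicate 3 or mutant replicate 2 or 3. The mean of the 7 was 0.04 to 0.23 in control and -0.77 to -0.68 in mutant arrays in ESC medium, and 0.16 to 0.60 and -0.04 to 0.40 in N2B27. Between media, 2 rose and 1 fell in control, and 3 rose in mutant, with Tagln at 2.60 (SE 0.36, adjusted p = 5.82e-04) and Acta2 at 2.45 (SE 0.41, adjusted p = 0.00162).

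Of 5 trophoblast genes, Krt8 (-1.85) and Krt18 (-2.12), keratins of simple epithelia, fell in mutant cells in ESC medium. Tfap2c, an AP-2 factor gene, had 0.43 there (adjusted p = 0.113), with both mutant arrays above control. In N2B27 Tfap2c (0.98) and Krt8 (0.58) were higher in the mutant. The mean of the 5 was 0.27 to 0.38 in control and -0.46 to -0.45 in mutant arrays in ESC medium, and -0.27 to -0.14 and -0.01 to 0.13 in N2B27. Between media, Tfap2c fell in both genotypes and Krt8 in control, while Krt18 (2.18, SE 0.25) and Krt8 (1.94, SE 0.11) rose in mutant cells, as Pou3f1 did. The part of these cell types in the values of the 8 markers was not tested.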

How the data were processed

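The 11 arrays were read from a deposited table of log2 values for 28815 transcript clusters, which the submitters' processing notes credit to RMA in Expression Console 1.2 of Affymetrix, run by the authors. Each cluster was centred on a baseline that is not stated, and log base 2 follows from RMA's usual output. Platform annotation names 21780 clusters by 1 symbol, and clusters of a gene were averaged to 19935 genes. A filter on dim probes was not possible on centred values.

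Group means were fitted over all 4 groups with limma 3.58.1 in R 4.3.3 (7 residual degrees of freedom, prior worth 3.02), two-sided, and the fit was tested on simulated data. There, of genes changed by 0.5 on the log2 scale, 65% were called for medium in control and 51% in mutant. For genotype 48% were called in ESC medium and 58% in N2B27. Of genes changed by 1, 89% to 97% were called. Differences of 0.5 or less are thus often missed. Same-numbered arrays deviated together from their group means in control between media (r = 0.138, 0.181 and 0.131 over genes) and in N2B27 between genotypes (0.256, 0.430 and 0.158), and were taken as pairs there. With 2 pairs each, r was 0.215 and 0.266 in mutant between media and 0.037 and 0.284 between genotypes in ESC medium. Differences by pair are not given for those 2 comparisons. The fit reported has no block. Alternatives were array centring, cyclic loess, a trended prior, array weights, single clusters, the compared groups alone, a replicate block and each array left out. Lists name up to 4 called genes with the largest differences, and not all of them are given. Members and lists were chosen with earlier results of these data known.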

Additional observations from a re-analysis of the deposited data

Results flagged for a closer look

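Pou3f1 was singled out because its genotype difference changed between the media by the test of that change itself, with 1.08 on the log2 scale (SE 0.23, adjusted p = 0.0480, limma). Mutant arrays lay below control in 2 of 2 cases in ESC medium and above it in 3 of 3 in N2B27. The genotypes did not overlap in 39.4% of all genes in ESC medium and in 20.2% in N2B27. Taken alone, the ESC medium difference was not called (adjusted p = 0.186, limma). The test of the change reads these same arrays, so the positions add no separate support to it. Its adjusted p ran from 0.0174 to 0.211 when single arrays were left out.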

How the results depend on the processing

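Of 541 recomputed differences of the 8 markers, 496 kept their direction and their side of the threshold, 21 lost the call, 6 gained it and 18 changed sign, none of these 18 called. The N2B27 counts of 7 in control and 8 in mutant stayed at 7 and 8 under every alternative except single clusters, which gave 6 in control. For genotype in ESC medium the count of 1 became 0 with single clusters and 3 with array weights, and 0 to 2 without single arrays. For genotype in N2B27 the count of 1 became 0 with single clusters and with the compared groups alone, 3 with array weights and 0 to 1 without single arrays. Cyclic loess kept 1 there, which was Otx2 in place of Pou3f1. For the interaction the count of 1 became 0 with single clusters and under cyclic loess, and 0 to 1 without single arrays. The replicate block changed no call of a marker, as for Pou3f1 in N2B27 (0.62, adjusted p = 0.0343).

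Signs turned under cyclic loess for Fgf5 and Tcf15 between genotypes in ESC medium (0.083 and -0.17) and in the interaction (-0.42 and 0.19), and with array weights for Fgf5 in the interaction (-0.22) and Tcf15 in N2B27 (-0.037). Cyclic loess needs brightness, and centred values give none. Without single arrays the range crossed 0 for Otx2 in ESC medium (-0.33 to 0.40), Fgf5 in N2B27 (-0.49 to 0.016), and Fgf5 (-0.080 to 0.44), Zic2 (-0.016 to 0.17) and Tcf15 (-0.22 to 0.028) in the interaction. Over all genes, the calls for medium in mutant went from 5018 to 7689 with array weights and 2720 without mutant replicate 2 in ESC medium. For genotype they went from 1224 to 3138 in ESC medium and from 1144 to 2882 in N2B27 with array weights, to 397 in N2B27 with the compared groups alone, and to as few as 304 and 454 without single arrays. Those of the interaction went from 422 to 280 under cyclic loess, 1782 with array weights, 657 with the replicate block and as few as 59 without mutant replicate 2 in ESC medium. Of the other formative genes, the 7 calls for medium in mutant became 11 with array weights and 3 or 4 without mutant replicate 2 or 3 in ESC medium. Leaving out a mutant array in ESC medium leaves 1, assumed to vary like the other groups. For alternatives other than fewer arrays, the cause was not tested.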

Other observations

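The genes whose values over the 11 arrays lay closest to each marker were found by the root mean square difference after the mean of each gene was taken off. Predicted genes, unnamed clones, small RNAs, chemosensory receptors and symbols shared by several loci were passed over. For Fgf5 the closest of all genes is such an entry, and those ranked 2 to 4 were Pls3 (0.38), Car14 (0.39) and Otx2 (0.44), and for Otx2 they were Zic2 (0.28), Pls3 (0.28) and Pygb (0.29). Zic2 lay closest to Sall2 (0.17), Stxbp6 (0.21) and Pygb (0.22), and Car14 to Prss8 (0.17), Pls3 (0.17) and Lrrn1 (0.19). Pls3, of the actin-bundling protein plastin 3, thus stands near 3 of the markers. Tcf15 lay closest to Bcl3 (0.17), Epop (0.18) and Ccnb1ip1 (0.20). Pou3f1 lay closest to Slco5a1 (0.11), Zfp36l2 (0.12) and Zfp365 (0.12). For Zic5 they were Acvr1 (0.08), Mxra8 (0.08) and Spty2d1 (0.10), and for Foxd3 they were Scfd2 (0.10), Zw10 (0.10) and Chtf18 (0.11). A marker that varies little has small distances to many genes, so distances are not comparable between markers. Among the markers themselves the closest pair was Otx2 and Zic2 (0.28) and the farthest Fgf5 and Tcf15 (2.02).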
